A study of Mus musculus with 4 samples.

Results

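The genes described here are 9 genes of sodium, chloride, bicarbonate and potassium transport in the intestinal epithelium, chosen by name and matched by symbol to the gene identifiers of the deposited tables, which held 55487 genes. They are Slc9a3, Slc9a2, Slc26a3, Slc26a6, Slc4a4, Cftr, Slc12a2, Atp1b1 and Kcnq1, and all 9 passed the filter on low counts, as did 17155 genes in all. Their mRNA was measured by RNA-seq in organoids grown from crypts of the mouse small intestine (SI), epithelial cultures that hold stem cells and their progeny without the surrounding tissue. The 2 control libraries (replicates 1 and 2) came from SI organoids infected with lentivirus for a miRNA mimic control, and the 2 mimic libraries (replicates 3 and 4) from SI organoids infected with lentivirus for a miR-181a-5p mimic. Cultures of both groups grew in IntestiCult medium under selection with 2 μg/ml puromycin. The strain, age and sex of the mice that gave the crypts, and whether replicates of a group were separate infections, are not given in the sources used here. The p-values therefore measure the spread between these libraries, which may be technical. The mature miRNA itself is not part of these tables, so its level was not checked here.

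As background, fluid moves across the intestinal wall behind salt. Absorptive cells take up sodium through the apical exchangers NHE3 (Slc9a3) and NHE2 (Slc9a2), paired with the apical chloride-bicarbonate exchangers DRA (Slc26a3) and PAT1 (Slc26a6). Secreting cells load chloride across the basolateral membrane through NKCC1 (Slc12a2) and release it through the apical channel CFTR. KCNQ1, with its partner subunit KCNE3, lets potassium out basolaterally and keeps the driving force for chloride, NBCe1 (Slc4a4) brings in bicarbonate with sodium, and the sodium-potassium pump, of which Atp1b1 encodes the β1 subunit, maintains the gradients that all of them use.

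A miRNA is read through its seed, bases 2 to 8, which pairs with matching letters in the 3′ UTR of an mRNA. The mature miRNA (RefSeq, GRCm38.p6) is made from Mir181a-1, at chr1:137966468-137966490 on the + strand, and from Mir181a-2, at chr2:38852741-38852763 on the + strand. It is printed with the seed in capitals, followed by the matches found in the members' 3′ UTRs (GRCm38, GENCODE release M21, the strand of the mRNA) with the 7 letters TGAATGT that pair with the seed in capitals.
mmu-miR-181a-5p: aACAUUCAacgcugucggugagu
Slc9a3: gtaaaatcctaTGAATGTatttccttagg
Atp1b1: ctgcgtccttaTGAATGTtttgaccattt
The Slc9a3 stretch lies at chr13:74169011-74169039 on the + strand, and its match starts at position 2208 of a 3′ UTR of 2628 bases. That match is also an 8-letter one, TGAATGTA. The Atp1b1 stretch lies at chr1:164437393-164437421 on the - strand, with the match at position 866 of 1167. The other 7 members, Slc26a6 among them with a 3′ UTR of 266 bases, held no match in the 3′ UTR searched. Thus 2 of 9 members (22.2%) held the 7 letters, beside 2362 of 12847 tested genes with an annotated 3′ UTR (18.39%). The search was for these letters on the mRNA strand, in the longest annotated 3′ UTR of at least 50 bases, and a match is a description and not a shown site of binding.

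In all 4 libraries every member was detected, between 7.04 and 991.45 TPM, the abundance of a gene's transcripts corrected for their length and scaled to the same total in each library, which allows genes to be compared. Atp1b1 was the most abundant, with 829.84 and 991.45 TPM in the control libraries and 775.09 and 857.14 TPM in the mimic libraries. Slc12a2 came next, with 211.51 and 188.83 TPM in controls and 237.59 and 264.47 TPM with the mimic. Below these, the control libraries placed Kcnq1 and Slc26a6 together, then Cftr, Slc26a3 and Slc4a4. Slc26a3 had 49.17 and 53.30 TPM in controls and 57.75 and 59.12 TPM with the mimic, groups that did not overlap. Slc4a4 had 37.67 and 46.88 TPM in controls and 28.88 and 47.00 TPM with the mimic, where the lone low library was mimic replicate 3. Slc9a3 and Slc9a2, the sodium-hydrogen exchangers, stood last in both groups, with ranges that overlapped each other. Slc9a3 had 8.47 and 15.58 TPM in controls and 11.45 and 9.82 TPM with the mimic. Slc9a2 had 7.04 and 9.63 TPM in controls and 8.11 and 10.34 TPM with the mimic. In the mimic libraries the order differed in the middle. There Slc26a6 stood below Slc26a3 and Cftr and shared its range with Slc4a4, while Slc26a3 and Cftr shared theirs. As these are bulk libraries, fewer cells of a type and less RNA per cell cannot be told apart in any value given here.

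**Figure D1:**
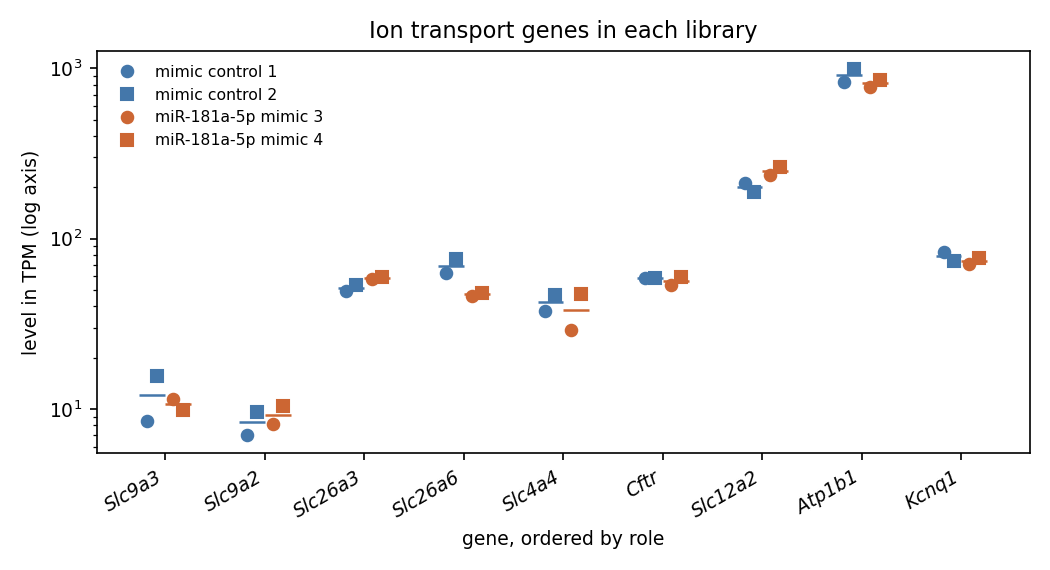
Level of each of the 9 members in TPM on a log axis, with a point for each library of the control and mimic groups and a line at each group's mean. Slc26a6 is the member whose mimic libraries (46.26 and 47.79 TPM) both lie under the control libraries (62.50 and 75.66 TPM), while those of Slc26a3 and Slc12a2 lie above and for Slc9a3, Slc9a2, Slc4a4, Cftr, Atp1b1 and Kcnq1 the points of the groups interleave.

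The comparison of mimic against control asked how far each mRNA differed between organoids with the miR-181a-5p mimic and those with the control. A gene was called changed where the adjusted p of edgeR's quasi-likelihood test was under 0.05. Of the 9 members, 1 fell (Slc26a6) and none rose, and none was called with a fold change of at least 2. Over all tested genes 612 were called, or 3.57%, of which 220 were higher (1.28%) and 392 lower (2.29%). With a fold change of at least 2 in addition, 0.589% were called higher and 1.47% lower. The members' log2 fold changes had a median of -0.10, beside -0.01 for all tested genes, with 4 above 0 and 5 below. The count of 1 of 9 (11.1%) is too small to be read against those shares. At an unadjusted p under 0.05 the count was again 1 member, beside 24.8% of all tested genes, and DESeq2 also called Slc26a6 lower and no member higher. Normalized CPM (counts scaled to the corrected library size) did not overlap between groups for 5 members, 2 higher (Slc26a3, Slc12a2) and 3 lower (Slc26a6, Cftr, Kcnq1). Among all tested genes 58.4% had groups that did not overlap, so this count is near the background.

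Of the apical chloride-bicarbonate exchangers, Slc26a6 fell and Slc26a3 did not pass the test. Slc26a6 (ENSMUSG00000023259, chr9:108853283-108913049, + strand) encodes PAT1, which also carries oxalate. Its libraries held 2146 and 2059 expected counts in controls, against 1298 and 1280 with the mimic, which is 56.0 and 66.4 against 41.4 and 36.0 normalized CPM. Both mimic libraries were below both control libraries. The means were 61.2 ± 7.4 (SD, n = 2) and 38.7 ± 3.88 (SD, n = 2) normalized CPM, a log2 fold change of -0.66 (SE 0.13, 95% interval -0.96 to -0.36) or 36.8% lower, with an adjusted p of 0.0403. The call was lost without mimic replicate 4 (-0.56, adjusted p = 0.0884) and held without each of the other libraries, at -0.79 to -0.53. It was also lost with no filter on low counts (adjusted p = 0.0984) and in the limma fits on TPM (0.145 to 0.314), which called at most 0.534% of all genes, and over all alternatives the adjusted p ran from 0.000474 to 0.314.

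Slc26a3 (ENSMUSG00000001225, chr12:31390871-31473917) encodes DRA, the exchanger whose loss causes congenital chloride diarrhoea in people. It stood at 114 and 117 normalized CPM in controls and at 130.1 and 124 with the mimic. The groups did not overlap, but the log2 fold change of 0.14 (SE 0.09, 95% interval -0.08 to 0.35) did not pass the test (adjusted p = 0.392). Within a library the ratio of Slc26a3 to Slc26a6 TPM was 0.787 and 0.704 in controls and 1.25 and 1.24 with the mimic. In TPM, PAT1 mRNA was thus the more abundant of the pair in both control libraries and DRA mRNA in both mimic libraries. In expected counts, which are not corrected for transcript length, Slc26a3 was above Slc26a6 in every library. Slc26a3 held 4378 and 3618 expected counts in controls and 4075 and 4401 with the mimic. The order in controls therefore rests on the length correction. The log2 ratio was higher by 0.74 with the mimic, at a two-sided exact permutation p of 0.333, which is the smallest that 2 against 2 libraries can give.

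The apical sodium-hydrogen exchangers showed no difference beyond the spread. Slc9a3 (ENSMUSG00000036123, chr13:74121457-74169442), which encodes the main exchanger of sodium absorption and holds the 8-letter match printed above, had 20.2 and 39.4 normalized CPM in controls and 34.5 and 27.1 with the mimic. Both mimic libraries lay between the control libraries. Its log2 fold change was 0.05 (SE 0.28, 95% interval -0.61 to 0.71, adjusted p = 0.935). Leaving out a library moved it from -0.37 to 0.61, and without control replicate 2 Slc9a3 was called higher (0.61, adjusted p = 0.0445, the lowest over all alternatives). Slc9a2 (ENSMUSG00000026062, chr1:40680574-40769273) had 27.6 and 38.2 normalized CPM in controls and 31.5 and 36.8 with the mimic, with a log2 fold change of 0.05 (SE 0.17, adjusted p = 0.869). The log2 ratio of Slc9a3 to Slc9a2 overlapped between groups, at 0.27 and 0.69 in controls and 0.50 and -0.07 with the mimic (exact permutation p = 0.667).

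Of the genes of chloride and bicarbonate secretion, none passed the test. Cftr (chr6:18170687-18322768) had 58.35 TPM in each control library and 53.58 and 59.50 TPM with the mimic. In normalized CPM its groups did not overlap, at 288 and 285 in controls and 263 and 272 with the mimic, and its log2 fold change was -0.10 (SE 0.09, 95% interval -0.31 to 0.12, adjusted p = 0.543). Slc12a2, the chloride loader NKCC1, had 1146 and 1012 normalized CPM in controls and 1278 and 1305 with the mimic, both above both controls. Its log2 fold change of 0.26 (SE 0.12, 95% interval -0.02 to 0.54) was the largest upward difference among the members and did not pass (adjusted p = 0.228). The log2 ratio of Cftr to Slc12a2 TPM was lower by 0.37 with the mimic (-1.86 and -1.69 against -2.15 and -2.15), again at the smallest exact permutation p of 0.333. Slc4a4 (chr5:88886818-89239653), the bicarbonate cotransporter NBCe1, spread widely within the mimic group, with 149 and 225 normalized CPM there and 186 and 239 in controls. Its log2 fold change was -0.19 (SE 0.20, 95% interval -0.65 to 0.28, adjusted p = 0.601).

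Neither the pump subunit nor the potassium channel passed the test. Atp1b1 (chr1:164437109-164458355, - strand) had 1341 and 1554 normalized CPM in controls and 1298 and 1351 with the mimic, a log2 fold change of -0.13 (SE 0.13, 95% interval -0.42 to 0.17, adjusted p = 0.567). Kcnq1 (chr7:143106362-143427042), at 83.62 and 74.29 TPM in controls and 70.84 and 76.44 TPM with the mimic, had 189 and 167 normalized CPM in controls and 161 and 163 with the mimic, a log2 fold change of -0.13 (SE 0.10, 95% interval -0.37 to 0.10, adjusted p = 0.440). Exons of Atp1b1, Cftr and Kcnq1 share 575, 129 and 121 bases with genes on the opposite strand (Nme7, Gm15592 and Kcnq1ot1), and the sources used here do not state that reads were counted by strand, so the reads of the shared bases cannot be assigned to either gene with certainty.

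**Figure D2:**
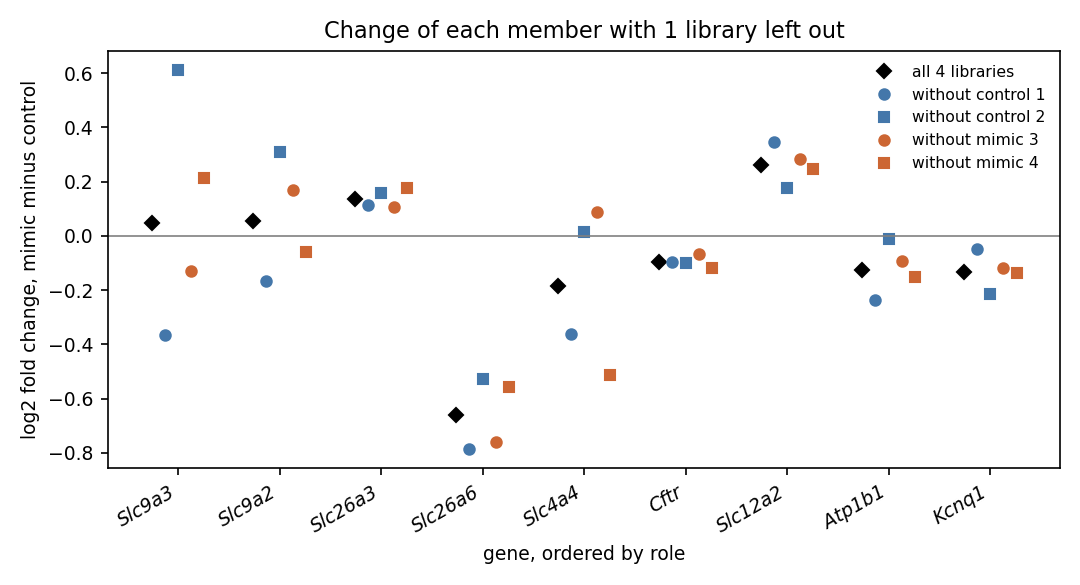
Log2 fold change of each member with all 4 libraries and with each library left out in turn. Slc26a6 stays below 0 in every refit (-0.79 to -0.53), while Slc9a3 runs from -0.37 to 0.61 and Slc4a4 from -0.51 to 0.09.

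In a list of 115 other ion transport genes, grouped by role, 81 passed the filter on low counts, 5 rose, 6 fell and 70 did not pass the test. The called share was 13.6% of the 81, beside 3.57% of all tested genes. As the list was chosen with earlier results of these data known, its share is a description and not an independent test. Their median log2 fold change was -0.03, with 38 above 0 and 43 below, and 49 of the 115 were under 1 TPM in all 4 libraries. With a fold change of at least 2 in addition, 4 rose and 5 fell. With at least 10 counts asked of every library, 75 of the 81 remained, with 10 of the 11 called genes. The other, Slc4a3, passed the filter on low counts through the control libraries alone, so its difference is tied to the filter. The limma fits on TPM called at most 0.534% of all genes. None of the 11 calls held in the limma fits on TPM in which its gene was tested, and 7 of them held with each library left out in turn. Without control replicate 2 the counts were 15 higher and 11 lower, while over all genes they were 1152 and 1213 (6.31% and 6.64%).

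Kcne3 (chr7:100176502-100184869), the KCNQ1 subunit of crypt cells, rose most. It had 138 and 175 expected counts in controls and 892 and 521 with the mimic, or 3.6 and 5.65 against 28.5 and 14.6 normalized CPM. Both mimic libraries were above both controls, and they differed from each other too. Its log2 fold change was 2.23 (SE 0.34, adjusted p = 0.0215), and the call was lost with edgeR's robust test (adjusted p = 0.0597) and with no filter (0.0571), in a range of 2.37e-09 to 0.314 over all alternatives. The ratio of Kcne3 to Kcnq1 TPM, chosen after the values were seen, was 0.0501 and 0.0901 in controls and 0.461 and 0.247 with the mimic (exact permutation p = 0.333). All 6 tested potassium channel genes of the list had a log2 fold change above 0, while the member Kcnq1 had -0.13. The sign held under each of the 4 scalings tried, but a scaling shifts all genes of a library together and adds little. Over all tested genes 8333 lay above 0 and 8822 below. Every role of the list except potassium channels, NHE scaffolds and aquaporins had genes on both sides of 0. The shared sign was read off the values and is a description. Of these 6 genes, 2 passed, Kcne3 among them, too few to be read against the 3.57% of all tested genes. The other was Kcnk6, a two-pore potassium channel subunit, at 1.51 and 1.55 normalized CPM in controls and 5.65 and 4.86 in mimic libraries (a log2 fold change of 1.78, SE 0.23, adjusted p = 0.0137). Kcnk1, the most abundant of these in TPM, had a log2 fold change of 0.33 (adjusted p = 0.1).

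**Figure D3:**
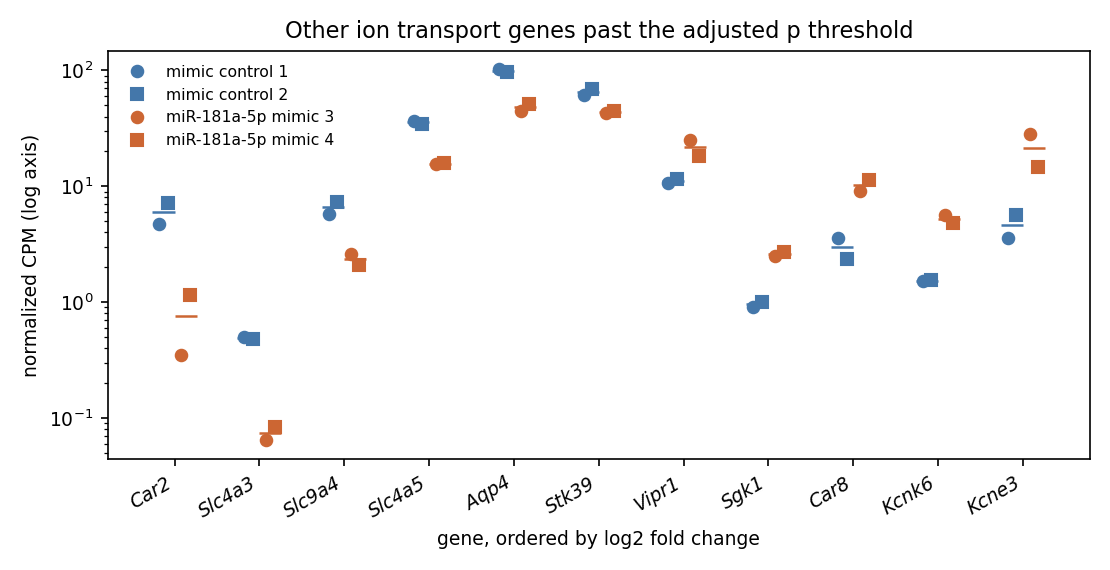
Normalized CPM per library on a log axis for the 11 genes of the wider ion transport list that passed the test, ordered by log2 fold change, with a line at each group's mean. In each gene the 2 libraries of a group lie on the same side of the other group. The genes were picked by the test on these same libraries, and 58.4% of all tested genes had groups that did not overlap.

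Of the 6 tested SLC4 bicarbonate transporters in the list, 2 were called lower, Slc4a5 and Slc4a3. The latter passed the filter on low counts through the control libraries alone. Such a count is too small to be read against the 2.29% of all tested genes called lower. Slc4a5, the bicarbonate cotransporter NBCe2, had 36.7 and 34.4 normalized CPM in controls and 15.5 and 15.9 in mimic libraries (a log2 fold change of -1.18, SE 0.11, adjusted p = 0.00579). Slc4a3, an anion exchanger, had 19 and 15 expected counts in controls but 2 and 3 with the mimic. At so few reads the ratio of summed counts, mimic over control and corrected for depth, was 0.152, with an exact 95% interval for counting error of 0.0465 to 0.392. Its call (adjusted p = 0.0467) was lost without control replicate 1 (0.111), mimic replicate 3 (0.186) or mimic replicate 4 (0.129). Slc4a2, the most abundant of these transporters in TPM, did not pass (log2 fold change 0.32, adjusted p = 0.121). Of the carbonic anhydrases, which make bicarbonate, Car2 fell from 4.69 and 7.2 normalized CPM to 0.351 and 1.15 (log2 fold change -2.93, SE 0.44, adjusted p = 0.0202), with -4.06 without mimic replicate 4 and -2.35 without mimic replicate 3. Car8, a member of that family that lacks the enzyme activity, rose from 3.6 and 2.36 to 9.04 and 11.3 normalized CPM (1.76, SE 0.25, adjusted p = 0.0161). Car9, far more abundant than either in TPM, had a log2 fold change of -0.28 (adjusted p = 0.559), and was called lower without mimic replicate 4 (-0.78, adjusted p = 0.045).

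Among the sodium-hydrogen exchangers outside the members, Slc9a4, which lies next to Slc9a2 at chr1:40580081-40630725, was called lower. Its libraries held 5.81 and 7.38 normalized CPM in controls and 2.61 and 2.09 in mimic libraries (a log2 fold change of -1.49, SE 0.24, adjusted p = 0.0241). On the TPM its log2 difference of group means was -0.74, and its exons share 764 of 4562 bases with Gm37435 on the opposite strand. Slc9a8, the most abundant in TPM of these other exchangers, had a log2 fold change of -0.12 (adjusted p = 0.505). In the edgeR fit the 7 scaffold and cofactor genes of NHE3 all lay below 0, under each of the 4 scalings tried, and none passed. Slc9a3r1 was at -0.03 (SE 0.09), and its mean TPM was higher with the mimic (69.2) than in controls (67.5). As for the potassium channels, the shared sign in the edgeR fit was read off the values and is a description, and the scalings add little. Ezr, which encodes ezrin and links membrane proteins to actin, had the highest TPM among them, with a log2 fold change of -0.44 (adjusted p = 0.0703). It was called lower in 3 of 13 alternative fits on all 4 libraries, DESeq2 (adjusted p = 0.0183) among them. In the unfiltered limma fit on TPM its adjusted p was 0.347. None of the 4 tested SLC26 genes or the 7 tested chloride channel genes passed. Slc26a2, a sulfate transporter, had a log2 fold change of 0.59 (adjusted p = 0.0514), and Clcn3 had 0.24 (adjusted p = 0.265). Slc26a2 was called higher in 5 of 13 alternative fits on all 4 libraries, DESeq2 (adjusted p = 0.0023) among them. In the unfiltered limma fit on TPM its adjusted p was 0.372.

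Regulators and water channels gave the remaining calls. Stk39, the kinase SPAK that switches NKCC1 on, fell from 61.9 and 68.7 normalized CPM to 42.9 and 45.0 (log2 fold change -0.57, SE 0.10, adjusted p = 0.0353), a call lost without mimic replicate 3 (0.137) or mimic replicate 4 (0.0566). Slc12a7, the potassium-chloride cotransporter KCC4 and the most abundant gene of that role, had 0.03 (adjusted p = 0.859). Sgk1, a kinase that promotes sodium channel activity, rose from 0.913 and 1.0 to 2.52 and 2.72 normalized CPM (1.46, SE 0.27, adjusted p = 0.0379), a low level throughout, and was not called without control replicate 1 (0.0859), mimic replicate 3 (0.0749) or mimic replicate 4 (0.0739). Prss8, the protease prostasin and the most abundant gene of that role in TPM, had 0.08 (adjusted p = 0.680). Vipr1, the receptor for the secretory peptide VIP, rose from 10.7 and 11.5 to 25.1 and 18.1 (0.96, SE 0.18, adjusted p = 0.0369), a call lost without mimic replicate 3 (0.107). All 6 tested aquaporins lay below 0, under each of the 4 scalings tried, a shared sign that was likewise read off the values and is a description. Of these aquaporins 1 passed, too few to be read against the 3.57% of all tested genes. That was Aqp4, a basolateral water channel, at 102 and 97.0 normalized CPM in controls and 44.3 and 51.6 with the mimic (-1.06, SE 0.11, adjusted p = 0.00778). Aqp1, the most abundant, had -0.10 (adjusted p = 0.746), and Guca2b, the peptide uroguanylin that stimulates chloride secretion, had -0.34 (adjusted p = 0.157). The 7 letters of the seed match stood in the 3′ UTR of 3 of the 6 genes that fell and of 2 of the 5 that rose. Among the 81 tested genes of this list, 19 held a match (23.5%), beside 18.39% of tested genes with an annotated 3′ UTR. The median 3′ UTR had 1563 bases in genes that fell, 2890 in genes that rose and 1165 over all tested genes. Slc4a3, among those that fell, passed the filter on low counts through the control libraries alone. Such small counts cannot be read against the shares. The called genes with a match were Car2, Slc4a3 and Aqp4, which fell, and Car8 and Vipr1, which rose. The stretches of Car2, at chr3:14900514-14900542 on the + strand, and of Car8, at chr4:8145590-8145618 on the - strand, are shown as the called genes of 1 family that went opposite ways, with the match in capitals.
Car2: tataaatgagaTGAATGTtcacccttcca
Car8: tatggcatatcTGAATGTatggcttctaa
The Car8 match is an 8-letter one, and the Car2 match is not. An 8-letter match stood in 2 of the 6 genes that fell (Slc4a3 and Aqp4) and in 1 of the 5 that rose (Car8). Among the 81 tested genes of the list 6 held such a match (7.407%), and over all tested genes with an annotated 3′ UTR the share was 6.095%. These counts, too, are too small to be read against those shares.

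**Figure D4:**
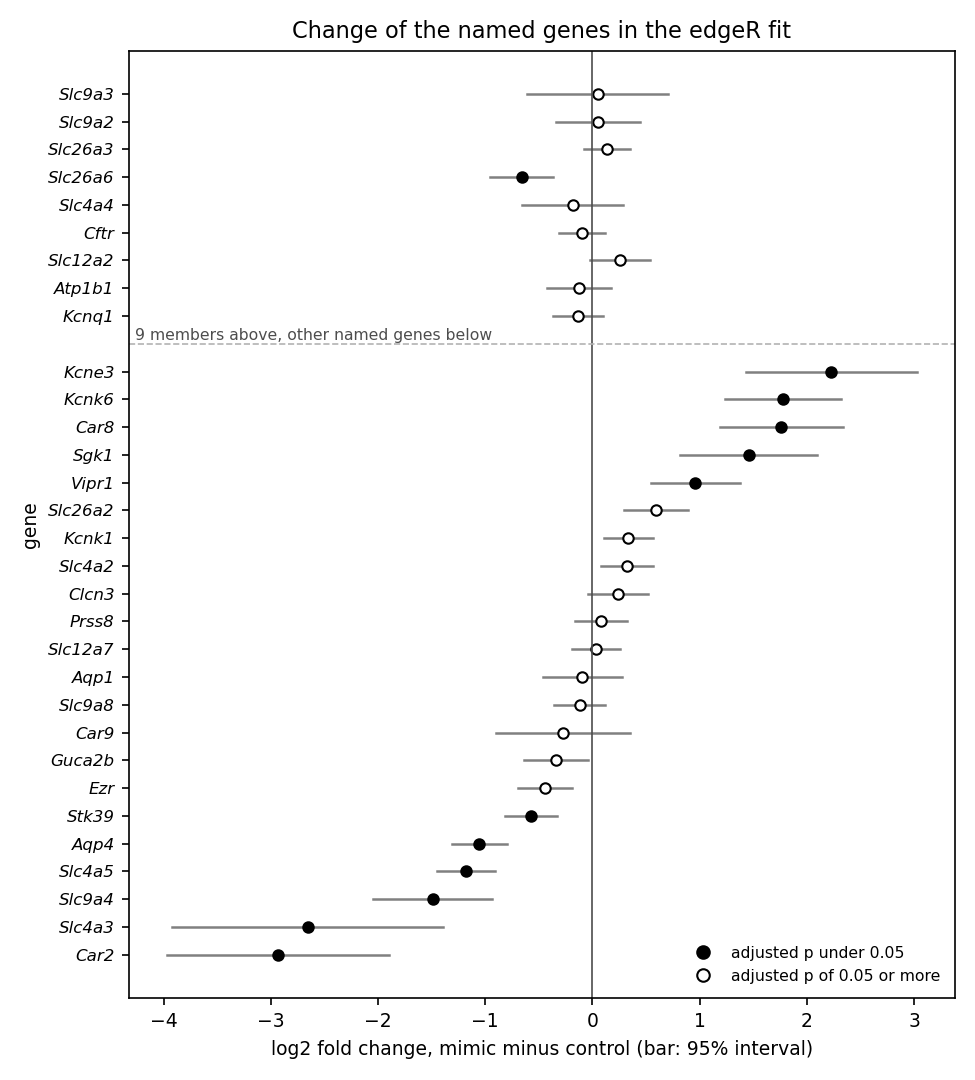
Log2 fold change of mimic against control (points) with its 95% interval (bars) from edgeR's quasi-likelihood test, for the 9 members above the dashed line and the other named ion transport genes below it; filled points passed the test at an adjusted p under 0.05. Among the members the interval of Slc26a6 (-0.96 to -0.36) lies wholly below 0 and the intervals of the other 8 include 0, while below the line 5 genes passed above 0 and 6 below.

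**Figure D5:**
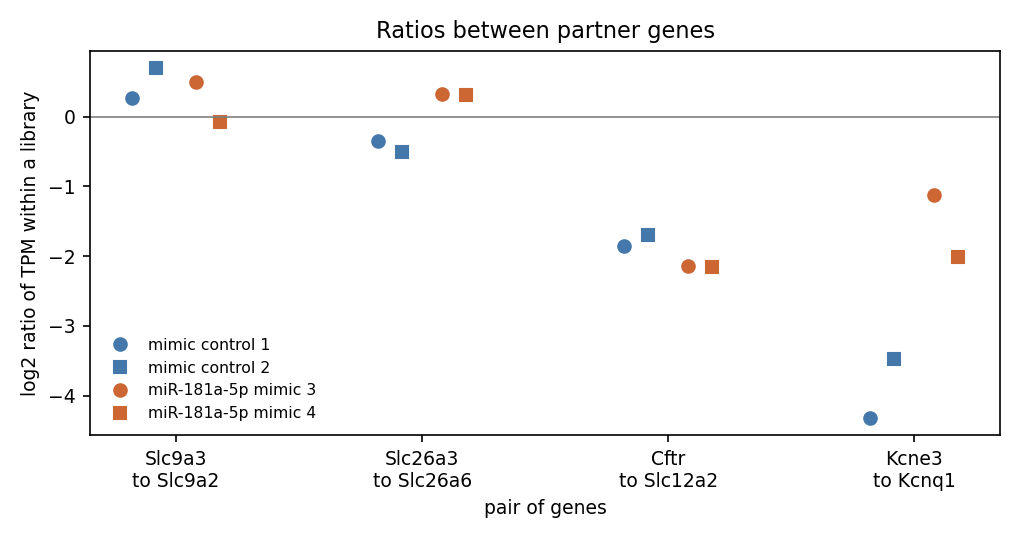
Log2 ratio of TPM between paired genes with a point for each library, for Slc9a3 to Slc9a2, Slc26a3 to Slc26a6, Cftr to Slc12a2 and Kcne3 to Kcnq1. The Slc26a3 to Slc26a6 ratio changes sign between the groups, from -0.35 and -0.51 in controls to 0.32 and 0.31 with the mimic, and the Slc9a3 to Slc9a2 ratios overlap. That change of sign holds for TPM only, as Slc26a3 had more expected counts than Slc26a6 in every library.

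Cell type markers gave these values beside the calls. The 10 epithelial markers summed to between 4220 and 4810 TPM in every library and none was called, so the labelled epithelium was present throughout. Mesenchymal markers summed to 2.77 to 7.45 TPM, with Col1a2, Col3a1, Dcn and Lum at 0 in all 4 libraries, and leukocyte and endothelial markers to 0.69 to 1.73 TPM, with Cdh5 and Kdr at 0 in all 4 libraries. Absorptive enterocyte markers summed to 3680 and 5094 TPM in controls and 3198 and 3158 with the mimic, with 2 of 15 called lower. Of the crypt stem cell markers 1 of 10 was called lower, of the proliferation markers 1 of 10 higher and of the goblet cell markers 1 of 8 lower, and no Paneth cell, enteroendocrine or tuft cell marker was called. Over all tested genes 1.28% were called higher and 2.29% lower, and marker lists this short are too small to be read against those shares. Markers of the proximal small intestine summed to 216 and 338 TPM in controls and 125 and 141 with the mimic, with 3 of 6 called lower (Slc40a1, Pdx1 and Onecut2). Those of the ileum summed to 6.79 and 11.6 against 12.0 and 16.6 TPM (Cubn called higher). All 6 proximal markers had a log2 fold change below 0 (median -1.63), and all 5 tested ileum markers had one above 0 (median 1.19). These shared signs were read off the values and are a description. The part of these marker differences in the result for Slc26a6 and for the other called genes was not tested.

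The libraries held between 31104884 and 38111731 expected counts. Replicates of a group differed by more than sampling noise, so none was a library deposited more than once, and the lowest count of a member in any library was 773 (Slc9a3, control replicate 1). For the members the spread between libraries therefore limits the precision rather than the counting.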

How the data were processed

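RNA-seq of 4 mouse SI organoid libraries (2 mimic control, 2 miR-181a-5p mimic) was re-analysed. The authors trimmed reads with Trimmomatic and deposited RSEM expected counts per gene (GRCm38) and TPM. The versions and the annotation release are not given in the sources used here. The labels name poly(A) enrichment and the study's methods ribosomal RNA depletion. Another 3 columns in each table, of other samples, were not used. After rounding, the expected counts entered the quasi-likelihood test of edgeR 4.0.16 (R 4.3.3) with filterByExpr, TMM factors and glmQLFit with legacy = FALSE, and p-values were adjusted by the Benjamini-Hochberg method across the 17155 tested genes. Standard errors were derived from the F statistic. DESeq2 1.42.0, limma 3.58.1 on log2(TPM + 1) and leaving out each library were alternatives, and the legacy test and the Kcne3 to Kcnq1 ratio were added after the data were seen. The steps were tested on simulated counts. Symbols were matched for 55141 of 55487 identifiers, with 3′ UTRs from GENCODE M21. The named genes are the members, each called gene of the wider list and the gene with the highest mean TPM in each role, and other named genes were chosen after their values were seen. Members and lists were chosen with earlier results of these data known. Intervals for counts cover counting error only. A few genes of the lists, 1 planned ratio and the colon marker list are not reported here.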

Additional observations from a re-analysis of the deposited data

How the results depend on the processing

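Directions held for Slc26a6 and for the 11 called genes of the wider list under every alternative that gave a value. With no filter on low counts 0 members were called lower, and likewise 0 in the 3 limma fits on TPM. Leaving out 1 library gave 0 to 1 members higher (1 without control replicate 2) and 0 to 1 lower (0 without mimic replicate 4). In the wider list (5 higher, 6 lower), the counts were 12 and 10 with the edgeR exact test, 13 and 10 with the likelihood-ratio test, 12 higher with DESeq2, 2 higher with no filter and 0 and 0 on TPM, and 4 to 15 higher and 5 to 11 lower with a library left out (15 and 11 without control replicate 2). Over all genes the calls moved as well, from 220 higher and 392 lower to 761 and 1027 with the exact test, 792 and 1072 with the likelihood-ratio test, 636 and 657 with DESeq2, 67 and 125 with no filter, at most 32 and 43 on TPM, and 1152 and 1213 without control replicate 2. With 8-letter matches alone 1 member held a seed match. The causes were not tested. Signs reversed for Slc9a3 on TPM (-0.11 with a pseudocount of 1, with or without the filter, and -0.11 with 0.1) and for Slc12a7 with upper-quartile factors (-0.018). With a library left out, log2 fold changes that crossed 0 ran from -0.37 to 0.61 for Slc9a3, -0.17 to 0.31 for Slc9a2, -0.51 to 0.089 for Slc4a4, -0.31 to 0.16 for Aqp1, -0.78 to 0.10 for Car9, -0.030 to 0.11 for Slc12a7 and -0.0085 to 0.17 for Prss8, and the log2 ratio of Slc9a3 to Slc9a2 from -0.55 to 0.017. A fit without 1 library leaves a lone sample that is assumed to vary like the other group. No paired analysis was possible because the groups share no replicate numbers.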

Other observations

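Changes computed from counts and from TPM differed for a few of these genes. The log2 difference of group means in TPM minus that in normalized CPM was -0.22 for Slc9a3, 0.74 for Slc9a4, -0.32 for Slc4a3, 0.23 for Car2 and -0.20 for Sgk1, beside a median of 0.06 and a 5th to 95th percentile range of -0.08 to 0.17 over the 12481 genes at 1 TPM or more in every library. Slc9a3 was 0.05 in CPM and -0.18 in TPM, and Slc9a4 was -1.49 and -0.74. Slc4a3 was under 1 TPM in every library, Sgk1 in control replicate 1 (0.75 TPM) and Slc9a4 in mimic replicate 4 (0.92 TPM). The percentile range therefore does not cover Slc4a3, Sgk1 or Slc9a4. Car2 was also low in the mimic libraries.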
